A study of Homo sapiens with 8 samples.

Results

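The lysyl oxidases LOX, LOXL1, LOXL2, LOXL3 and LOXL4, the prolyl 4-hydroxylase alpha subunits P4HA1, P4HA2 and P4HA3, and the lysyl hydroxylases PLOD1 and PLOD2 are enzymes that modify collagen. They were chosen by gene name, as 10 of the 18417 genes that the array annotation gives at least 1 transcript cluster of their own. A transcript cluster is the set of probes that the array reads as 1 transcript. Each of the 10 genes had exactly 1 such cluster, so no gene was left out and none needed a choice between clusters.

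Collagen chains are modified inside the endoplasmic reticulum, where P4HA1, P4HA2 and P4HA3 form alternative catalytic subunits of the enzyme that hydroxylates proline and so stabilises the triple helix, and where the PLOD enzymes hydroxylate lysine. The lysyl oxidases are copper enzymes that act mostly outside the cell and oxidise lysine and hydroxylysine, from which the covalent cross-links of collagen and elastin form. The hydroxylases need oxygen, iron and 2-oxoglutarate, as do the EGLN enzymes that mark the hypoxia-inducible factor (HIF) for VHL, and several of the 10 genes, among them LOX, P4HA1, P4HA2 and PLOD2, are known HIF targets in other cells.

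786-O is a human renal cell carcinoma line without functional VHL, the ubiquitin ligase subunit that directs HIF to degradation. Its messenger RNA was measured on 8 Affymetrix Gene 1.0 ST arrays in 4 groups of 2, after 24 h in culture. The groups were VHL+ cells under hypoxia, VHL+ cells under normoxia, VHL- cells under hypoxia and VHL- cells under normoxia, and hypoxia was 1% oxygen. The comparisons ask which transcripts change with VHL, which with low oxygen, and whether both act on the same ones. VHL+ cells carried a VHL overexpression vector as stable transfectants kept as bulk cultures, whereas the VHL- arrays are labelled as untransfected. Effects of transfection and selection therefore cannot be told apart from those of VHL, and all groups come from a single cell line.

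The VHL transcript itself read 9.08 and 9.16 (log2 signal) in VHL+ cells under hypoxia and 8.85 and 8.86 in VHL+ cells under normoxia, against 8.23 and 8.51 in VHL- cells under hypoxia and 8.24 and 8.43 in VHL- cells under normoxia, with no overlap between VHL+ and VHL- arrays. All 6 markers of renal epithelium examined (PAX8, PAX2, KRT8, KRT18, CDH6, LHX1) were above the array's median on all 8 arrays. Of 11 markers of fibroblasts, endothelium and leukocytes, 9 were below the median on all 8 arrays and CD68 was above it on all 8. The fibroblast marker LUM differed between the VHL- cultures of replicates 1 and 2, as described with LOX. Array medians lay between 6.60 and 6.91, and replicate arrays correlated with Pearson's r between 0.991 and 0.994. The 2 arrays of each group limit the precision. Every p-value speaks only of these cultures, which the labels call biological replicates. Those of limma, the test used below, also rest on a variance borrowed from all clusters.

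The promoters of 4 genes whose values the results turn on are shown first. RefSeq's promoter table (GRCh38.p14) held an entry for 8 of the 10 genes and none for LOXL2 and P4HA3. The 250 bases before the transcript start were searched on both strands for ACGTG and GCGTG, the core letters of the HIF-binding hypoxia response element, which do not overlap each other here. LOX, P4HA1 and PLOD2 hold them and P4HA2 does not. The LOX sequence is chr5:122078260-122078509, that of P4HA1 chr10:73096867-73097116, that of P4HA2 chr5:132227092-132227341 and that of PLOD2 chr3:146161185-146161434, all on the minus strand and written 5′ to 3′ as transcribed, with capitals on the core letters and, for a match on the opposite strand, on their reverse complement.
LOX: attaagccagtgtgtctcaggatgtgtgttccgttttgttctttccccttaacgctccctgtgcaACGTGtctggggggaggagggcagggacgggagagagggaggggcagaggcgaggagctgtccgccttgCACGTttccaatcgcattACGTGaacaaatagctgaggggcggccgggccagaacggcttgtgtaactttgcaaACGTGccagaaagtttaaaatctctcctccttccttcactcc
P4HA1: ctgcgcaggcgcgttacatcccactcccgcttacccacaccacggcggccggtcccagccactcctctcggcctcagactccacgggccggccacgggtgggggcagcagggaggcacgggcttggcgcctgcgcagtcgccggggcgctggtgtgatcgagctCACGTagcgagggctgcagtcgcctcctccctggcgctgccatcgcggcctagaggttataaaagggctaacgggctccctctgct
P4HA2: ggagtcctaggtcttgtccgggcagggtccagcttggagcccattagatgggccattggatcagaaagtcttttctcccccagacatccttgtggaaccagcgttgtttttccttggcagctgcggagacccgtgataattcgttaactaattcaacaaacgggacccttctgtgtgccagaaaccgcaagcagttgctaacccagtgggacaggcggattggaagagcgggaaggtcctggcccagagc
PLOD2: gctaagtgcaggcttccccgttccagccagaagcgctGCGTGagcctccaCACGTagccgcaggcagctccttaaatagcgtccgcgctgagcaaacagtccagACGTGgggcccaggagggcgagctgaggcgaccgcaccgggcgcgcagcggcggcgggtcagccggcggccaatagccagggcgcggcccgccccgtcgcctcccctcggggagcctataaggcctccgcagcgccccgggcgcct

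LOX has 4 matches, 3 on the transcribed strand and 1 on the opposite strand, in the window before the most upstream of its 3 annotated starts. PLOD2 has 3 and P4HA1 has 1, which begins 86 bases before the start. PLOD1 has 2 matches, both GCGTG. LOXL1, LOXL3, LOXL4 and P4HA2 have none in this window. Over all 35116 RefSeq promoter windows of this length, 43.2% hold at least 1 match, 7.76% at least 3 and 3.22% at least 4. A match describes letters only, and a window without one says nothing of binding elsewhere.

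**Figure D1:**
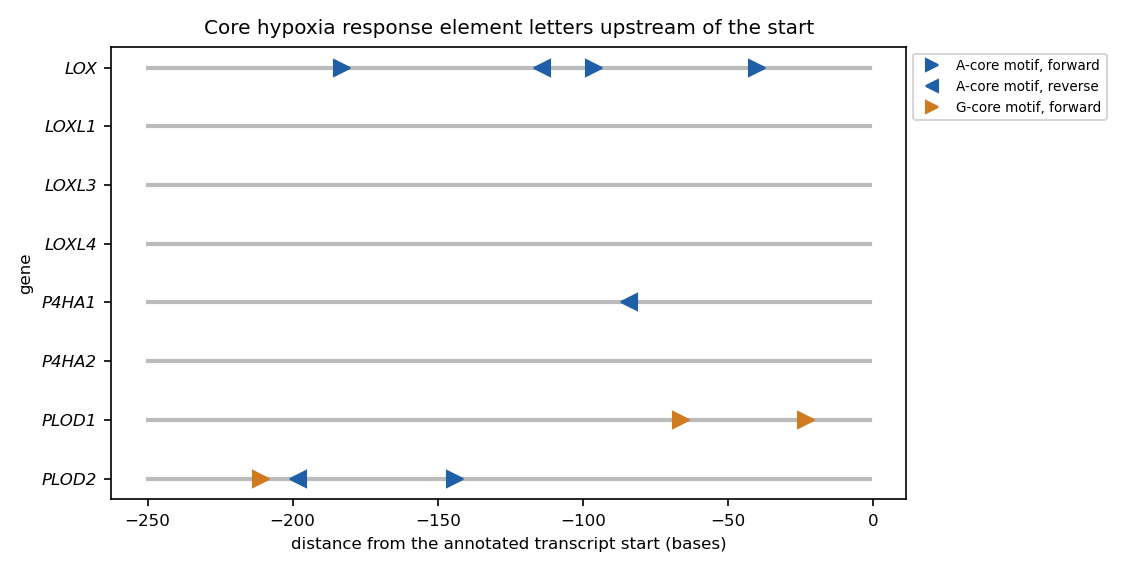
Matches to the core letters of the hypoxia response element in the 250 bases before the annotated start of 8 genes, with the distance from the start in bases on the horizontal axis and 1 gene a row. Triangles point right for the transcribed strand and left for the opposite strand, in blue for ACGTG and orange for GCGTG. LOX carries 4 matches, PLOD2 3, PLOD1 2 and P4HA1 1, and the other 4 genes carry none.

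Expression is given below as log2 signal after robust multi-array averaging (RMA), so that a difference of 1 is a doubling, and signals of different genes are not set against each other. LOXL3, LOXL4 and P4HA3 stayed below the median of their array on all 8 arrays, and LOX did so on the 4 VHL+ arrays. No background level was measured for this array type, so a fold change that ends at such a signal may understate the difference.

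**Figure D2:**
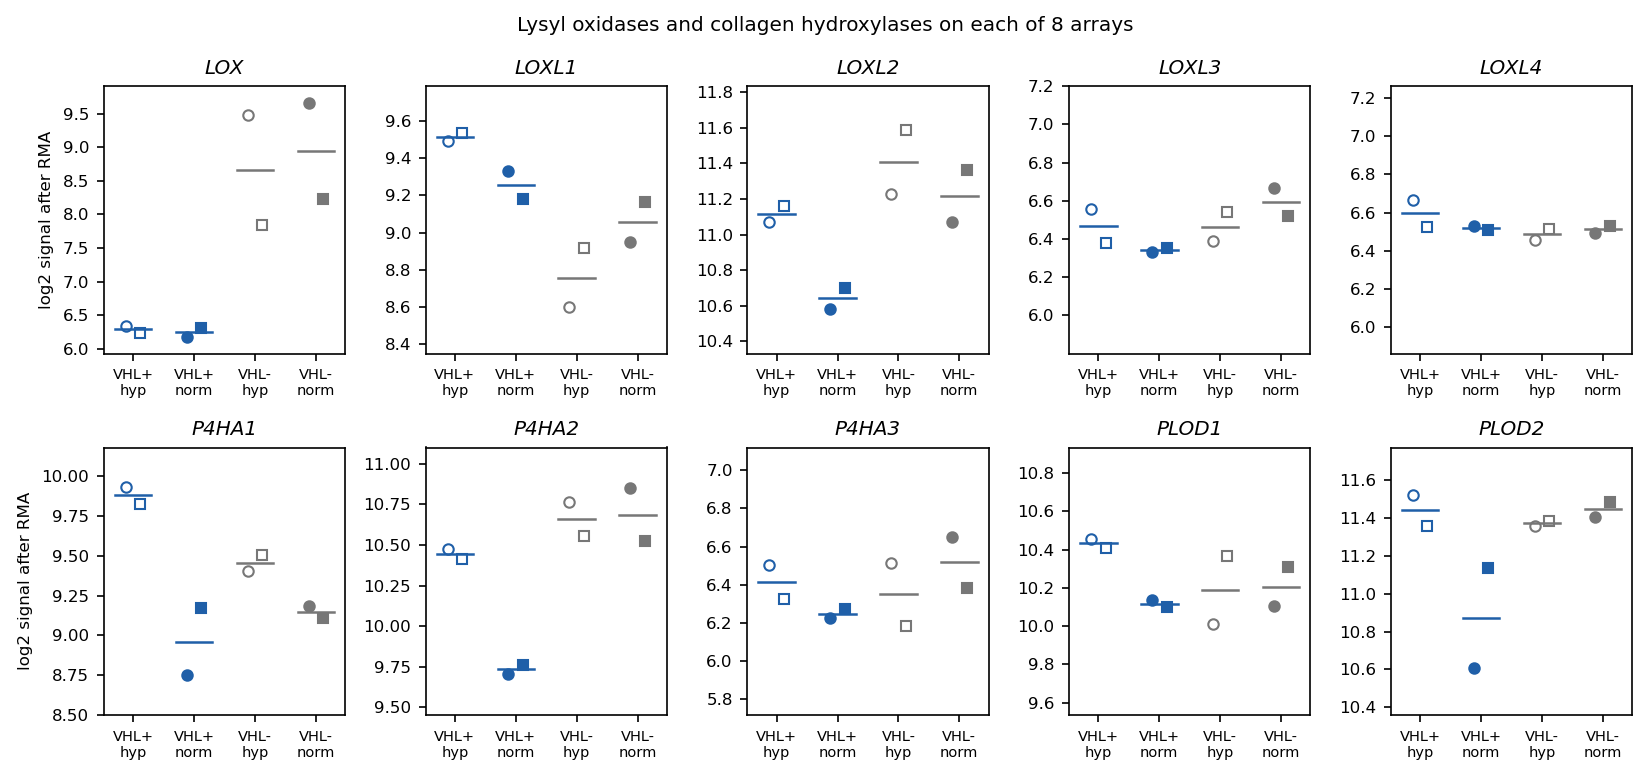
Log2 signal after RMA (vertical axis, own range for each gene) of the 10 genes on each of 8 arrays, by group on the horizontal axis (hyp, hypoxia; norm, normoxia). Circles are replicate 1, squares replicate 2, open symbols hypoxia, filled symbols normoxia, and lines the mean of 2 arrays. LOX lies between 6.18 and 6.35 on the VHL+ arrays and between 7.85 and 9.66 on the VHL- arrays, and P4HA2 is lowest on both VHL+ normoxia arrays.

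LOX, the founding member of its family and a cross-linker of fibrillar collagen and elastin, was lower in VHL+ cells. It read 6.35 and 6.24 in VHL+ cells under hypoxia and 6.18 and 6.31 in VHL+ cells under normoxia. In VHL- cells it read 9.48 and 7.85 under hypoxia and 9.66 and 8.24 under normoxia. Every VHL+ array was below every VHL- array, and hypoxia and normoxia arrays overlapped within both cell types. The difference was a log2 fold change of -2.54 (SE 0.24, 95% interval -3.02 to -2.05) over both oxygen conditions, a 5.80-fold lower signal (limma, adjusted p = 1.51e-08). Under normoxia alone it was -2.70 (SE 0.38, adjusted p = 0.000238) and under hypoxia alone -2.37 (SE 0.38, adjusted p = 0.000595).

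The LOX signal also differed between the VHL- cultures. Replicate 1 exceeded replicate 2 by 1.63 under hypoxia and by 1.42 under normoxia on the log2 scale, so the SD of a VHL- pair was 1.15 under hypoxia and 1.01 under normoxia, while those of the VHL+ pairs were 0.077 and 0.091. LUM, the fibroblast marker named above, ran the other way, with 6.03 in replicate 1 and 8.04 in replicate 2 of VHL- cells under hypoxia and 6.29 and 8.65 under normoxia. It read between 6.88 and 7.53 on the VHL+ arrays. The other 3 fibroblast markers (PDGFRB, DCN, THY1) were below the array median on all 8 arrays. Whether this difference between cultures has a part in the LOX values was not tested, but the fall in VHL+ cells was present against either culture. With both VHL- arrays of replicate 1 left out the log2 fold change over both oxygen conditions was -1.77, and with both of replicate 2 left out it was -3.30, and LOX was called in both cases under an added setting chosen after these values were seen. No single array removed the call over both oxygen conditions (highest adjusted p = 0.0112). Each such fit kept the other VHL- array of the same number, however. That comparison counted the VHL- arrays as independent, although LOX differed alike between the cultures under hypoxia and normoxia. Its interval of -3.02 to -2.05 holds neither -1.77 nor -3.30, so it does not cover the difference between the cultures. The calls within 1 oxygen condition were less firm, and the hypoxia value was -1.56 without VHL- hypoxia replicate 1. Their SE of 0.38 was smaller than the LOX arrays alone would give, since limma drew the variance towards that of all clusters. The same holds for the SE of 0.24 over both oxygen conditions and its interval and p-value. Each fit also used 1 variance for the VHL+ and VHL- arrays of LOX, whose SDs differed as given above. The normoxia value stayed at -2.70 without either VHL+ hypoxia array. Leaving out VHL+ hypoxia replicate 1 or 2 raised the adjusted p under normoxia to 0.0836 in either case, and under hypoxia to 0.176 without replicate 1 and 0.115 without replicate 2. A trended, robust variance also ended both (0.221 under normoxia and 0.164 under hypoxia).

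Among the hydroxylases, P4HA2 and PLOD2 were lower in VHL+ cells under normoxia. P4HA2, a catalytic subunit prominent in cartilage and endothelium, read 10.48 and 10.41 in VHL+ cells under hypoxia and 9.70 and 9.76 in VHL+ cells under normoxia. In VHL- cells it read 10.77 and 10.55 under hypoxia and 10.85 and 10.52 under normoxia. The VHL+ normoxia arrays thus stood below all 6 others, and the VHL+ hypoxia arrays lay below all 4 VHL- arrays. Under normoxia the log2 fold change by VHL was -0.95 (SE 0.15, 95% interval -1.26 to -0.65, adjusted p = 0.000475), and the call remained whichever array was left out (highest adjusted p = 0.0294), but not with the 4 normoxia arrays alone (adjusted p = 0.0579). Under hypoxia it was -0.21 (interval -0.52 to 0.09, adjusted p = 0.398), and over both oxygen conditions -0.58 (SE 0.13, adjusted p = 0.00202).

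PLOD2, the lysyl hydroxylase of collagen telopeptides, read 11.52 and 11.36 in VHL+ cells under hypoxia and 10.61 and 11.13 in VHL+ cells under normoxia. In VHL- cells it read 11.36 and 11.39 under hypoxia and 11.41 and 11.49 under normoxia. Both VHL+ normoxia arrays lay below the other 6 and apart from each other, whereas the other 3 groups lay close together. The log2 fold change by VHL was -0.58 under normoxia (SE 0.16, adjusted p = 0.0436) and 0.07 under hypoxia (interval -0.27 to 0.40, adjusted p = 0.787). The normoxia call was not firm. Without VHL+ normoxia replicate 1 the log2 fold change was -0.31, while without either VHL+ hypoxia array it stayed at -0.58 and only the call changed. Leaving out VHL+ normoxia replicate 1, either VHL- normoxia array or either VHL+ hypoxia array ended it, with adjusted p between 0.0793 and 0.506, as did median centring (0.104) and leaving out dim clusters (0.0812).

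P4HA1, the main catalytic subunit in most cell types, read 9.93 and 9.83 in VHL+ cells under hypoxia and 8.75 and 9.17 in VHL+ cells under normoxia. In VHL- cells it read 9.40 and 9.50 under hypoxia and 9.19 and 9.11 under normoxia. Its hypoxia arrays were above its normoxia arrays in both cell types, and the VHL+ hypoxia pair was above all others. By VHL it changed by -0.19 under normoxia (interval -0.50 to 0.13, adjusted p = 0.824) and by 0.43 under hypoxia (interval 0.11 to 0.74, adjusted p = 0.0752), neither of which passed. PLOD1, which hydroxylates lysine in the collagen helix, read 10.46 and 10.41 in VHL+ cells under hypoxia and 10.14 and 10.10 in VHL+ cells under normoxia, against 10.01 and 10.37 in VHL- cells under hypoxia and 10.10 and 10.31 in VHL- cells under normoxia. Its differences by VHL, -0.09 under normoxia and 0.24 under hypoxia, did not pass. P4HA3, a catalytic subunit of low abundance in most tissues, lay between 6.23 and 6.51 on the VHL+ arrays and between 6.19 and 6.65 on the VHL- arrays, which overlapped.

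LOXL1, the family member tied to elastic fibres, was the 1 gene of 10 called as higher with VHL. It read 9.49 and 9.54 in VHL+ cells under hypoxia and 9.33 and 9.18 in VHL+ cells under normoxia, against 8.60 and 8.92 in VHL- cells under hypoxia and 8.95 and 9.16 in VHL- cells under normoxia. All VHL+ arrays were above all VHL- arrays, although the nearest pair, VHL+ normoxia replicate 2 and VHL- normoxia replicate 2, nearly met. The log2 fold change was 0.76 under hypoxia (SE 0.15, adjusted p = 0.00256), 0.20 under normoxia (interval -0.11 to 0.51, adjusted p = 0.759) and 0.48 over both (SE 0.12, adjusted p = 0.0062). The hypoxia value shares in a shift of all clusters described below, and the call was lost after quantile normalization (adjusted p = 0.102), after median centring (0.0686), and without VHL+ hypoxia replicate 1 (0.103) or 2 (0.0824). Over both oxygen conditions it was lost after quantile normalization (0.0715) and without VHL+ hypoxia replicate 1 (0.124).

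LOXL2, which oxidises collagen IV of basement membranes, was lower with VHL. It read 11.07 and 11.16 in VHL+ cells under hypoxia and 10.58 and 10.70 in VHL+ cells under normoxia, against 11.23 and 11.59 in VHL- cells under hypoxia and 11.07 and 11.36 in VHL- cells under normoxia. The VHL+ normoxia pair was below all 6 other arrays, while VHL+ hypoxia and VHL- normoxia arrays overlapped. The log2 fold change was -0.58 under normoxia (SE 0.15, adjusted p = 0.0343), -0.29 under hypoxia (interval -0.61 to 0.03, adjusted p = 0.259) and -0.43 over both (SE 0.11, adjusted p = 0.00851). Under hypoxia it reached -0.52 and was called after quantile normalization (adjusted p = 0.0395). Without VHL+ normoxia replicate 1, VHL- normoxia replicate 2 or either VHL+ hypoxia array the normoxia call was lost (adjusted p between 0.102 and 0.444), as it was after median centring (0.119), and the call over both was lost without VHL+ hypoxia replicate 1 (0.0778) or VHL- normoxia replicate 2 (0.071).

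LOXL3 and LOXL4, relatives of LOXL2 with scavenger receptor domains, changed little. LOXL3 lay between 6.33 and 6.56 on the VHL+ arrays and between 6.39 and 6.67 on the VHL- arrays, and LOXL4 between 6.51 and 6.67 and between 6.46 and 6.53, with overlap in both genes. Neither passed the test in any comparison with the deposited values. LOXL3 passed over both oxygen conditions once arrays were quantile normalized (-0.18, adjusted p = 0.0286) or centred (-0.19, adjusted p = 0.029).

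By count, under normoxia 4 of the 10 genes passed for VHL, all of them lower (LOX, LOXL2, P4HA2, PLOD2), where 4.77% of the 33297 clusters tested passed (2.07% higher, 2.69% lower). The median log2 fold change of the 10 was -0.26, beside -0.04 over all clusters. Under hypoxia 2 of 10 passed, LOX as lower and LOXL1 as higher, beside 11.6% of all clusters (10.3% higher, 1.31% lower). The median was 0.07 beside 0.16 over all clusters. Over both oxygen conditions 4 of 10 passed, LOXL1 as higher and LOX, LOXL2 and P4HA2 as lower, beside 14.3% of all clusters (10.6% higher, 3.72% lower). Without both VHL- arrays of replicate 1, whose LUM and LOX signals stood apart from those of replicate 2, LOX, LOXL2 and P4HA2 passed over both conditions, and without both of replicate 2 LOX, LOXL1 and P4HA2 did. The arrays of the VHL+ and VHL- groups did not overlap for 7 of the 10 genes under normoxia, where 40.4% of all clusters were so separated, for 7 under hypoxia (51.3%) and for 3 over both conditions, namely LOX, LOXL1 and P4HA2 (13.5%).

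**Figure D3:**
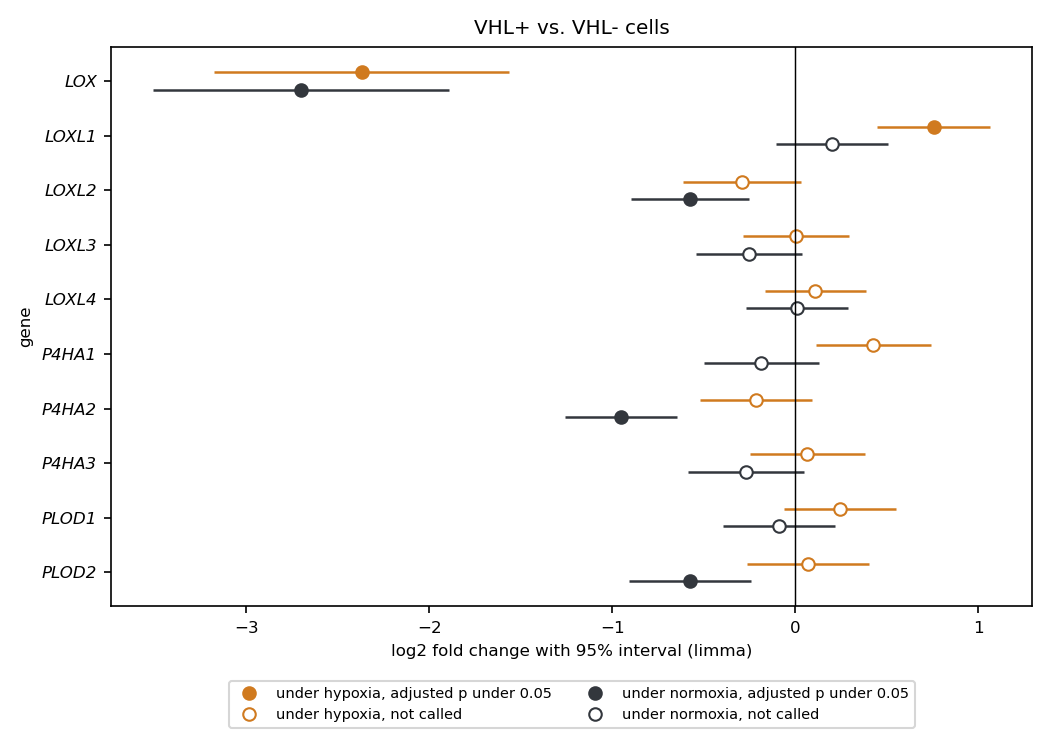
Log2 fold change of VHL+ against VHL- cells (horizontal axis) with its 95% interval from limma, for the 10 genes (1 a row) under hypoxia (orange) and under normoxia (dark grey). Filled points passed at an adjusted p under 0.05. LOX lies at -2.37 and -2.70, P4HA2 at -0.21 and -0.95, and LOXL1 at 0.76 and 0.20.

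The signal over all clusters differed between arrays, which bears on these signs. The median cluster was 0.16 higher in VHL+ than in VHL- cells under hypoxia, and 0.12 lower under hypoxia than under normoxia in VHL- cells. Under hypoxia the array medians were 6.91 in VHL+ and 6.60 in VHL- cells for replicate 1. For replicate 2 they were 6.74 and 6.70, so the shift lay mostly between the replicate 1 arrays. Of the clusters called for VHL under hypoxia 88.7% were higher in VHL+ cells, but 50.2% after quantile normalization and 59.7% after median centring. For VHL over both conditions the share was 74.0%, with 52.5% and 61.7% after the same steps. For VHL under normoxia it was 43.5%, with 49.8% and 55.3%. Relative to the median cluster LOX fell by 2.53 under hypoxia, LOXL1 was 0.60 higher there, and P4HA2 fell by 0.92 under normoxia. After either rescaling LOX passed over both oxygen conditions but no longer within 1 of them, although its fold changes were about as large. Under normoxia it was then -2.72 (quantile, adjusted p = 0.0607) and -2.65 (centring, 0.0657), and under hypoxia -2.54 (0.0743) and -2.55 (0.0672).

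Hypoxia raised P4HA1 in VHL+ cells. With the values given above, its log2 fold change for hypoxia was 0.92 in VHL+ cells (SE 0.15, 95% interval 0.61 to 1.23, adjusted p = 0.0127), a 1.89-fold higher signal, and 0.83 relative to the median cluster. It was the 1 gene of 10 that passed, where 0.153% of all clusters passed. In VHL- cells the difference was 0.31 (interval -0.01 to 0.62, adjusted p = 0.806), and over both cell types 0.61 (SE 0.12, adjusted p = 0.0351), where 0.171% of all clusters passed. Quantile normalization (under which 1 cluster in all passed in VHL+ cells), median centring and leaving out dim clusters each removed both calls (adjusted p between 0.11 and 0.273). So did leaving out VHL+ hypoxia replicate 1 (adjusted p = 0.999 in VHL+ cells and 0.633 over both) or VHL+ normoxia replicate 1 (0.0913 and 0.065), and leaving out VHL+ hypoxia replicate 2 removed that in VHL+ cells (0.472).

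The other hydroxylases and LOXL2 read higher under hypoxia in VHL+ cells without passing. P4HA2 differed by 0.71 (interval 0.41 to 1.02, adjusted p = 0.0674), PLOD2 by 0.57 (interval 0.24 to 0.91, adjusted p = 0.295), LOXL2 by 0.47 (interval 0.15 to 0.79, adjusted p = 0.466) and PLOD1 by 0.32 (interval 0.01 to 0.62, adjusted p = 0.792). P4HA2 and PLOD2 did pass with limma's trended, robust variance. P4HA2 also passed by the methods' one-way test before adjustment, which P4HA1 did not, with limma on the 4 VHL+ arrays alone, and without any 1 of the 4 VHL- arrays or without VHL+ normoxia replicate 2, and PLOD2 without either VHL- hypoxia array or VHL+ normoxia replicate 2. Together with P4HA1, 5 of the 10 genes had an unadjusted p under 0.05, beside 6.16% of all clusters. All 10 fold changes were above 0 with the deposited values, with a median of 0.29 beside 0.09 over all clusters, although those of LOX and LOXL4 turned negative after quantile normalization or median centring. The hypoxia and normoxia arrays did not overlap for 8 of 10 (30.4% of all clusters). LOX, at 0.04 (interval -0.76 to 0.85), was among the 2 genes whose arrays did overlap.

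In VHL- cells no gene of the 10 passed for hypoxia by limma, and none had an unadjusted p under 0.05, where 0.0661% of all clusters passed and 5.30% had such a p. The methods' one-way test, run here on the VHL- arrays alone, also called none. The values ran between -0.30 for LOXL1 and 0.31 for P4HA1, with a median of -0.05 beside -0.12 over all clusters. Arrays did not overlap for LOXL1, P4HA1 and PLOD2, 3 of 10 (48% of all clusters). LOX differed by -0.29 (interval -1.09 to 0.52), with overlapping arrays. Within replicate 1 it differed by -0.18 and within replicate 2 by -0.39. Without VHL- hypoxia replicate 1, which leaves unlike cultures on each side, it reached -1.10 and was called, and without VHL- normoxia replicate 2 it was called as well (-0.998). Without VHL- hypoxia replicate 2 the sign turned (0.53), as it did without VHL- normoxia replicate 1, and neither was called.

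**Figure D4:**
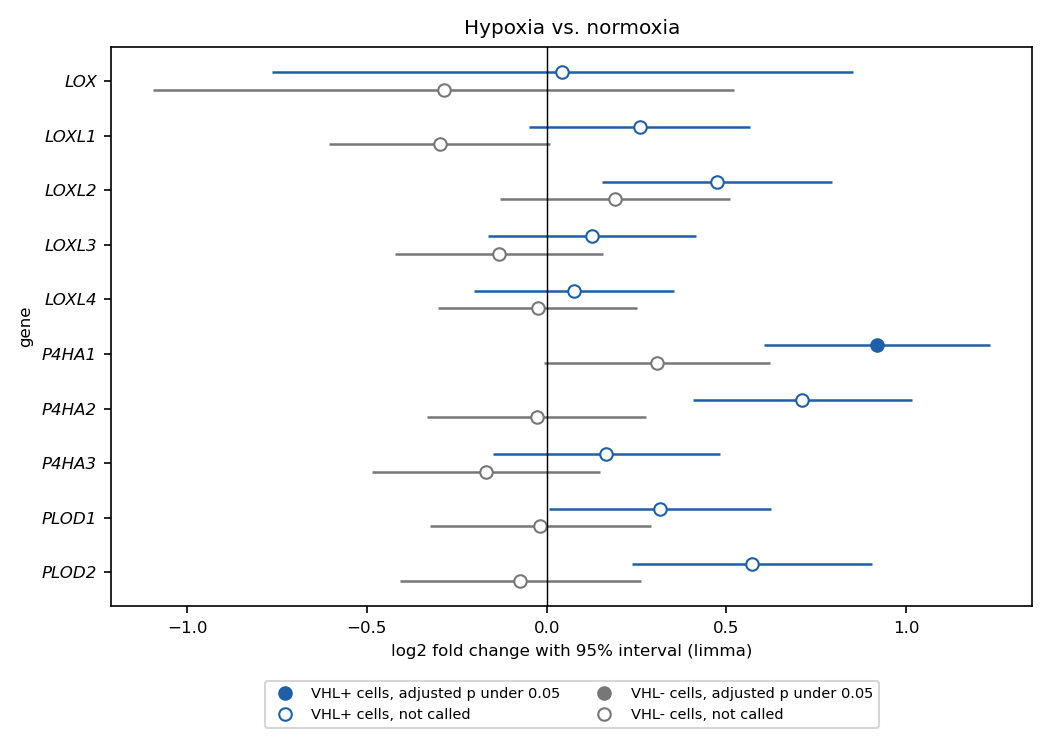
Log2 fold change of hypoxia against normoxia (horizontal axis) with its 95% interval from limma, for the 10 genes (1 a row) in VHL+ cells (blue) and VHL- cells (grey). The filled point, P4HA1 in VHL+ cells at 0.92, is the only one with an adjusted p under 0.05, and all 10 values in VHL+ cells are above 0, though those of LOX and LOXL4 turn negative after quantile normalization or median centring.

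The difference between the hypoxia effects in VHL+ and VHL- cells, which is also the difference between the VHL effects under hypoxia and normoxia, was tested as an interaction. No gene of the 10 passed by limma, where 0.00601% of all clusters passed. An unadjusted p under 0.05 was found for 4 of them (5.61% of all clusters), namely P4HA2 at 0.74 (interval 0.31 to 1.17), PLOD2 at 0.64 (interval 0.17 to 1.12), P4HA1 at 0.61 (interval 0.17 to 1.06) and LOXL1 at 0.56 (interval 0.12 to 0.99), each with an adjusted p of 0.651. All 10 values were above 0, with a median of 0.33 beside 0.21 over all clusters, but that of LOXL4 turned negative after quantile normalization or median centring. An effect of hypoxia that depends on VHL was therefore not shown for any of them at this number of arrays.

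The order of the group means differed between genes. For LOX both VHL- groups were above both VHL+ groups, and within each cell type the arrays overlapped. For P4HA1 the order was VHL+ hypoxia, VHL- hypoxia, VHL- normoxia and VHL+ normoxia from high to low, where only the last neighbours overlapped. For P4HA2 it was VHL- normoxia and VHL- hypoxia, which overlapped, then VHL+ hypoxia and VHL+ normoxia, each set apart from the group above it. For PLOD2 and LOXL2 the upper 3 groups overlapped with their neighbours and VHL+ normoxia stood below. For LOXL1 no neighbours overlapped, with VHL+ hypoxia highest and VHL- hypoxia lowest.

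Across the 8 arrays, P4HA2 followed PLOD2 (Pearson's r = 0.80), LOX (0.77) and LOXL2 (0.77), LOXL2 followed PLOD2 (0.76), and LOX and LOXL1 ran in opposite directions (-0.84). These are descriptions over arrays that share the 4 groups and the array-wide shifts. Among all genes with at least 0.5 times the spread of LOX, those most like it were COL6A1 (0.993), a chain of collagen VI, HAS2 (0.991), a hyaluronan synthase, and MALL (0.990), a membrane protein of the MAL family. For P4HA2 they were DPYSL3 (0.989), TGM2 (0.985), the transglutaminase that cross-links proteins, and LAMB3 (0.978), a laminin chain of basement membranes. The nearest to PLOD2 were H2AZ2 (0.987), MESD (0.969) and AMZ1 (0.968), and to P4HA1 USP31 (0.971), ITPR1 (0.966) and TRAF1 (0.963). LOXL1 was nearest to SCARNA6 (0.995), CRTC2 (0.987) and MCRS1 (0.984), and LOXL2 to DYNC1H1 (0.986), MRM1 (0.981) and JUN (0.972).

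Other genes of the same pathway were read from fixed lists. Over both oxygen conditions 10.6% of all clusters were higher in VHL+ cells and 3.72% lower. Of the collagen chains and elastin on which these enzymes act, 12 of 12 were measured, with 2 higher and 3 lower. COL1A2, COL3A1 and COL5A2 were below the array median on all 8 arrays, COL5A1 on 7 and COL2A1 on 4. COL6A3 was below it on the VHL+ arrays. Changes in such dim genes may be understated. COL4A1 and COL4A2, the paired chains of basement membrane collagen, were higher by 2.06 and 1.66 (log2, adjusted p = 9.92e-13 and 1.68e-10). The 3 chains of collagen VI were lower, COL6A3 by a log2 fold change of -4.32 (adjusted p = 1.04e-19), COL6A1 by -1.31 and COL6A2 by -0.99. COL6A3 read 6.74 and 6.36 in VHL+ cells under hypoxia and 6.37 and 6.43 under normoxia, against 11.07 and 10.79 in VHL- cells under hypoxia and 10.84 and 10.46 under normoxia. COL6A3 thus separated VHL+ and VHL- arrays as LOX did. Its VHL- cultures differed in the same direction as those of LOX, but by less. COL6A1 differed more between these cultures. It read 9.72 in replicate 1 and 8.68 in replicate 2 of VHL- cells under hypoxia, and 9.87 and 9.05 under normoxia. The median of the list was 0.04, beside 0.07 over all genes.

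Of the other intracellular collagen enzymes and chaperones, 14 of 15 were measured, with 2 higher and 2 lower in VHL+ cells over both conditions. Their median was -0.02, beside 0.07 over all genes, and 10.6% of all clusters were higher and 3.72% lower. P3H2, a prolyl 3-hydroxylase that acts on collagen IV, was higher by 1.25 (adjusted p = 1.55e-08), and TMEM38B, a cation channel of the endoplasmic reticulum, by 0.65 (adjusted p = 0.000671). FKBP10, a prolyl isomerase and partner of PLOD2, changed by -0.61 (adjusted p = 0.000839), and P3H4, a scaffold for collagen lysine hydroxylation, by -0.44 (adjusted p = 0.00571). PLOD3, the remaining lysyl hydroxylase, differed by 0.25 and did not pass (adjusted p = 0.193). Of 9 extracellular processing genes, all measured, 3 were higher and 1 lower, with a median of 0.06. ADAMTS14, TLL1 and PXDN were below the array median on all 8 arrays, TLL2 on the VHL- arrays and PCOLCE2 on 3 VHL+ arrays. ADAMTS3 (1.61) and ADAMTS2 (1.29), which can remove the amino-terminal propeptide of procollagen, and TLL2 (0.68), a tolloid-like protease, were higher, and PCOLCE2 (-1.08), an enhancer of carboxy-terminal cleavage, was lower. For hypoxia none of the measured genes of these 3 lists passed by limma, in either cell type or over both. The calls named here for VHL over both conditions were also made after quantile normalization and after median centring. Only after these steps did BMP1 pass as lower (limma, -0.36, adjusted p = 0.00159, and -0.30, adjusted p = 0.0102). SERPINH1 was lower only after quantile normalization (-0.22, adjusted p = 0.0353) and P3H1 only after centring (-0.25, adjusted p = 0.031).

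**Figure D5:**
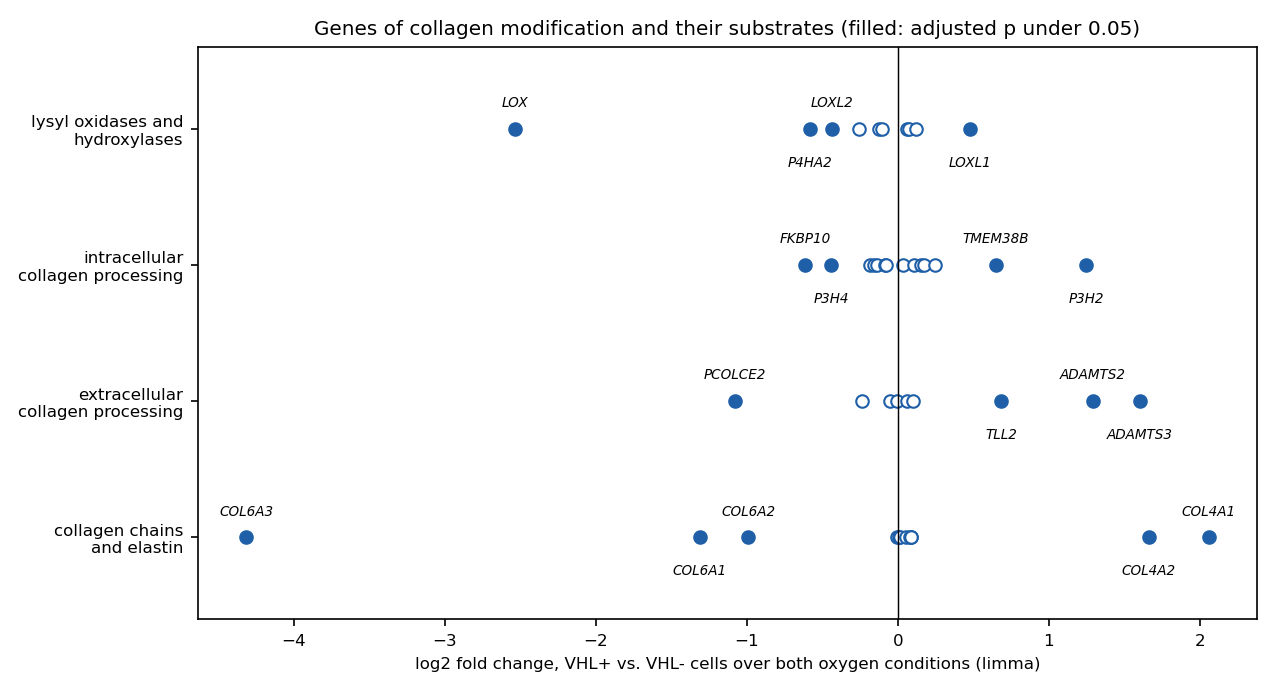
Log2 fold change of VHL+ against VHL- cells over both oxygen conditions (horizontal axis) for the 10 genes and 3 lists of related genes (rows, 1 point a gene). Filled, named points passed at an adjusted p under 0.05. LOX at -2.54 lies on the side of the collagen VI chains (COL6A3 at -4.32), and COL4A1 at 2.06 and COL4A2 at 1.66 lie on the other side.

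Oxygenases that sense oxygen and established HIF targets were read for comparison. EGLN3, a HIF prolyl hydroxylase and itself a HIF target, was the 1 of 4 measured oxygenases that passed for VHL over both conditions (-0.51, adjusted p = 0.00456). Its difference was -0.81 under normoxia (adjusted p = 0.0029) and -0.21 under hypoxia (adjusted p = 0.415), beside -0.95 and -0.21 for P4HA2. Over both conditions 3.72% of all clusters were lower in VHL+ cells and 10.6% higher. Of 9 measured HIF targets 5 were lower and none higher, with a median of -0.59 beside 0.07 over all genes. They were VEGFA (-1.26), ADM (-1.19), NDRG1 (-0.86), SLC2A1 (-0.61) and BNIP3 (-0.59). For hypoxia 3 passed as higher in VHL+ cells (0.153% of all clusters passed), NDRG1 by 2.28, SLC2A1 by 1.49 and ADM by 1.19. In VHL- cells 1 passed (0.0661% of all clusters), NDRG1 by 1.07 (limma, adjusted p = 0.00489). The P4HA1 value in VHL+ cells, 0.92, was below those of NDRG1, SLC2A1 and ADM there. After quantile normalization or median centring SLC2A1 and ADM, like P4HA1, no longer passed for hypoxia in VHL+ cells, whereas NDRG1 did. In VHL- cells no cluster passed for hypoxia after either step, so the NDRG1 call there was lost.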

How the data were processed

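RNA of 786-O cells was hybridised to 8 Affymetrix Gene 1.0 ST arrays, 2 for each of 4 groups (VHL+ or VHL-, hypoxia or normoxia). The authors deposited log2 values for 33297 transcript clusters. Per the labels, the processing tools were Partek and RMA, with versions not given in the sources used here. RMA subtracts background, equalises arrays and summarises probes, so low signals are compressed and no detection call is left. The deposited arrays were nevertheless not fully equal, with medians between 6.60 and 6.91, and the main tests used them as deposited. Gene names came from the platform annotation (19460 clusters with 1 symbol, 1754 with several, 12083 with none), and the 10 genes were taken by symbol. The genome build of the array annotation was not given in the sources used here, and promoters came from RefSeq on GRCh38.p14.

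Differences were tested with limma 3.58.1 in R 4.3.3. One fit had a mean for each of the 4 groups and contrasts for VHL, hypoxia and their interaction, and a second fit had both factors without interaction for the effects over both conditions. In both fits limma drew the variance of each cluster towards a common value. This prior counted 13.97 degrees of freedom in the first fit and 20.74 in the second. The cluster's own arrays gave 4 and 5. Benjamini-Hochberg adjustment ran over all 33297 clusters, with a threshold of 0.05, and intervals are at 95%. The code was tested on simulated data. Gene lists of collagen processing, substrates, oxygenases, HIF targets and cell type markers were read from the same fits. The members and lists were chosen with earlier results of these data known. All 10 members are named. For each called member the 3 genes with the highest correlation are named, and for each list up to 4 called genes with the smallest p for VHL or hypoxia over both conditions. Beyond this number COL6A1 was named as the remaining called chain, and BMP1, SERPINH1 and P3H1 were named for calls made only after rescaling. Values of PLOD3 and LUM were added after they were seen.

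Alternatives were quantile normalization, median centring, a trended and robust variance, the replicate number as a block, leaving out dim clusters, averaging clusters of a gene, a 2-fold minimum, the compared groups alone, leaving out each array, and the methods' one-way test at an unadjusted p of 0.005 or after adjustment. That one-way test was run here on the arrays of the compared groups alone, with no variance from the other groups. The methods do not give its layout in full, so its calls here are not those of the authors' own run. Replicate numbers were not taken as pairs in the main comparison.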

Additional observations from a re-analysis of the deposited data

How the results depend on the processing

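The counts of the 10 genes called depended on the setting, while no called value turned round in sign. The genes behind a count could change as well. After quantile normalization the 1 gene called for VHL under hypoxia was LOXL2, while LOX and LOXL1 were no longer called. LOX for VHL over both oxygen conditions passed under every alternative run. The methods' one-way test was run here on the compared arrays alone, so its counts are not those of the authors' own run. VHL over both oxygen conditions was the firmest comparison, with 4 genes called, 4 after quantile normalization (with LOXL3 in place of LOXL1), 5 after median centring and 2 to 4 without 1 array, and 1 at a minimum of 2-fold or by the methods' one-way test, with or without adjustment. For VHL under normoxia 4 were called, against 1 after median centring, 2 without dim clusters, 0 by the methods' test in either form, 0 from the 4 compared arrays alone, 1 at 2-fold, and 1 to 4 without 1 array. For VHL under hypoxia 2 were called, against 1 after quantile normalization, 0 after centring, 1 with a trended, robust variance, 0 by the methods' test in either form, 1 at 2-fold, and 0 to 3 without 1 array. For hypoxia in VHL+ cells 1 was called, against 0 after quantile normalization, centring, removal of dim clusters, adjustment of the methods' test or a 2-fold minimum, 1 other gene (P4HA2) by that test unadjusted, 3 with a trended, robust variance, 2 from the compared arrays alone, and 0 to 3 without 1 array. For hypoxia over both cell types 1 was called, against 0 after quantile normalization, centring, removal of dim clusters, the methods' test in either form or a 2-fold minimum, and 0 to 1 without 1 array. For hypoxia in VHL- cells it was 0 in every setting that kept all arrays, and 0 to 1 without 1 array, and for the interaction 0 throughout. The causes were not tested, other than that fewer arrays were used. Under settings chosen after seeing the data, without both VHL- arrays of replicate 1 the counts were 3 for VHL under normoxia, 1 under hypoxia, 2 for hypoxia in VHL+ cells and 2 over both cell types, and without both of replicate 2 they were 2, 2, 2 and 1.

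With the replicate number as a block, 4 genes were called for VHL under normoxia, 3 under hypoxia (with P4HA1 added, adjusted p = 0.0487), 4 over both conditions, 3 for hypoxia in VHL+ cells (with P4HA2, 0.00195, and PLOD2, 0.0372, added), 0 in VHL- cells, 1 over both cell types and 0 for the interaction. Deviations of arrays with the same number correlated over clusters with r = 0.60 between the 2 VHL- groups, 0.31 between the 2 VHL+ groups, and 0.05 to 0.21 between VHL- and VHL+ groups. Not every value was over 0.1 and the labels name no shared batch, so the numbers were not taken as pairs. Of 1329 values of single genes under the alternatives 1221 kept their side of the threshold and direction of any call, 83 lost a call and 25 gained one. No background was measured, so how far changes in the dim genes LOXL3, LOXL4 and P4HA3 are understated is unknown.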
